A study of Mus musculus with 8 samples.

Results

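Chemokines are small secreted proteins that attract leukocytes, and chemokine receptors are the G-protein-coupled receptors by which cells read them. The set described here holds every protein-coding gene of the deposited count table whose symbol is Ccl, Cxcl, Ccr or Cxcr followed by a number and at most 1 letter. It has 53 members of 56748 genes in the table: 24 CC ligands, 13 CXC ligands, 10 CC receptors and 6 CXC receptors. Of the 53 members, 23 reached 1 CPM (a read count scaled to library depth, with TMM factors) in at least 4 of 8 libraries, and 31 passed the filter for testing.

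The libraries came from polyadenylated RNA of 8 whole hearts of C56BL mice aged 3 to 4 months, collected 7 days after transverse aortic constriction, which loads the left ventricle with pressure. The 4 hearts labelled CMS7KO came from mice with a knockout of Smad7, an inhibitor of TGF-beta family signalling, made by a Cre recombinase under the promoter of alpha myosin heavy chain. The 4 control hearts, labelled ACRE, carried the same Cre with no Smad7 knockout on their labels, and all 8 hearts were constricted. Replicates 1 and 2 of each group were labelled male, and replicates 3 and 4 female. That promoter drives Cre in cardiomyocytes, whereas a whole heart holds every cell type.

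Chemokine receptors signal mainly through inhibitory G proteins. CC ligands such as Ccl2 and Ccl7 draw monocytes through Ccr2. CXC ligands with a glutamate-leucine-arginine motif, such as Cxcl1, draw neutrophils through Cxcr2. Cxcl12 retains and recruits cells through Cxcr4, and the interferon-inducible Cxcl9 and Cxcl10 draw T cells through Cxcr3. After pressure overload, monocytes enter the heart by the Ccr2 route and add to the resident macrophages.

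Smad7, the targeted gene, stood at 30.9, 41.8, 38.9 and 43.1 CPM in CMS7KO 1 to 4, against 34.6, 34.4, 32.6 and 23.9 CPM in ACRE 1 to 4, so its whole-gene level was not lower in the libraries labelled CMS7KO (log2 fold change 0.30, SE 0.18, unadjusted p = 0.117, edgeR adjusted p = 0.415), and directions by genotype rest on the labels. Libraries held 12920435 to 17199600 counted reads. ACRE 2 and ACRE 4 stood apart on the first principal component, which held 37.5% of the variance, with scores of 63.6 and 76.4 against -47.98 to -11.3 in the other 6 libraries. Their summed level of 5 cardiomyocyte markers was 56688 and 70376 CPM, against 20325 to 34447 CPM in CMS7KO and 28031 and 35206 CPM in ACRE 3 and 1. All 5 markers had a negative difference of CMS7KO minus ACRE, 1 with an unadjusted p under 0.05 by edgeR and 0 with an adjusted one. Over all genes tested, 8.2% had such an unadjusted p and a negative difference. The female label went against Xist and the Y-linked genes in CMS7KO 3 and ACRE 3: Xist stood at 0.651, 0.311, 0.568 and 836 CPM in CMS7KO 1 to 4 and at 0.351, 0, 0.314 and 362 CPM in ACRE 1 to 4.

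RefSeq windows of 300 bases on GRCm38.p6, from 250 before to 50 after the gene's start, were matched by symbol for 38 of 53 members and for 20 of the 31 tested. The 5 windows shown are those of a neutrophil-attracting pair from the chromosome 5 cluster (Cxcl1 and Cxcl2), an interferon-inducible ligand (Cxcl10), and the ligand and the receptor with the largest fold difference among members that reached 1 CPM in 4 libraries without overlap of the groups (Ccl8 and Ccr1). Capitals mark matches, on either strand, to GGGANNTTC (a kappaB-like string), TGANTCA (the AP-1 core) and GAAANNGAA (an interferon response-like string). TTCNNNGAA (a GAS-like string) was also searched and had no match in these 5.
Cxcl1, chr5:90890995-90891294, plus strand: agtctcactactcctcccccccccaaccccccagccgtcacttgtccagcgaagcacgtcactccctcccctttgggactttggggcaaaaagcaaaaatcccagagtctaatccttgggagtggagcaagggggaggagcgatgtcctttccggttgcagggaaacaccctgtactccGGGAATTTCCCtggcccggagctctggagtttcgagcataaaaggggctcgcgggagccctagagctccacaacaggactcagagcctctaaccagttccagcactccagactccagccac
Cxcl2, chr5:90903649-90903948, plus strand: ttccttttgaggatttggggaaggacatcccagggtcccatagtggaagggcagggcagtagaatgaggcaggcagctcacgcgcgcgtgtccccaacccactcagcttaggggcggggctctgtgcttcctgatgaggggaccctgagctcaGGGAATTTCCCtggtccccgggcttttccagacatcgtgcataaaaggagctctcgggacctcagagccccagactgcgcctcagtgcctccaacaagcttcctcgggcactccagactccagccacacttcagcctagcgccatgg
Cxcl10, chr5:92348840-92349139, minus strand: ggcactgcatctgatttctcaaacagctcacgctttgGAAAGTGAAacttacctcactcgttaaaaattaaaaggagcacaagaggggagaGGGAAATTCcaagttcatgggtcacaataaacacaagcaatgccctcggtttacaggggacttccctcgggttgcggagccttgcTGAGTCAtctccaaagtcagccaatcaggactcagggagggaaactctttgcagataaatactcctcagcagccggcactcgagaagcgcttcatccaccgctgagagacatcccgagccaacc
Ccl8, chr11:82114935-82115234, plus strand: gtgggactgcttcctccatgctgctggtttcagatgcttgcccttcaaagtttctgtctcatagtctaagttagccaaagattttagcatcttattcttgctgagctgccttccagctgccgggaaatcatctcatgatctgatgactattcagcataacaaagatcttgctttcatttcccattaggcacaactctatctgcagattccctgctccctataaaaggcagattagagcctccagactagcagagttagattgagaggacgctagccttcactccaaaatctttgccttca
Ccr1, chr9:123968643-123968942, minus strand: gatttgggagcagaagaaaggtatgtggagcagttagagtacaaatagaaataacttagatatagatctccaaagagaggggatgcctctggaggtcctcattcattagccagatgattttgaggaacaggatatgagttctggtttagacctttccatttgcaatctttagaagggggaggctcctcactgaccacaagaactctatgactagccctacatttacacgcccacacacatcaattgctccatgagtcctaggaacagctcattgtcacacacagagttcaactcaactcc

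Cxcl1 and Cxcl2 held the same kappaB-like run, matched on both strands by overlapping strings, which begins 71 bases before the start in Cxcl1 and 97 bases before it in Cxcl2. Cxcl10 held a match to each of the 3 capitalised strings, and Ccl8 and Ccr1 held no match to them in their windows. The kappaB-like string was found in 8 of 38 members with a window (21.1%) and in 4.47% of the 27025 genes with one. The looser spelling GGNNNNNCC was found in 29 of 38 members (76.3%) and in 74.8% of genes, a like share, and the spellings were chosen after looking at matches. The AP-1 core was found in 8 members (21.1%) against 8.97% of genes, the interferon response-like string in 8 (21.1%) against 9.76%, and the GAS-like string in 3 (7.89%) against 9.55%. A match describes letters only.

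No chemokine or chemokine receptor gene passed edgeR's test between CMS7KO and ACRE hearts, and among members at 1 CPM in 4 libraries with separated groups the largest estimates were those of the ligand Ccl8 and the receptor Ccr1, both higher in CMS7KO. By edgeR's quasi-likelihood test with Benjamini-Hochberg adjustment over 16780 genes, 0 of 31 tested members had an adjusted p under 0.05, where 0.0358% of all genes tested did (0.0179% higher and 0.0179% lower in CMS7KO). Without adjustment 7 of 31 members (22.6%) had a p under 0.05, against 15.3% of all genes tested. The 6 with a positive difference were Ccl8, Ccl24, Ccr1, Ccl21a, Ccl27a and Cxcl16, where 7.12% of all genes tested had such a p and a positive difference, and the 1 with a negative difference was Cxcl1, where 8.2% of genes had one. DESeq2 called 3 members higher in CMS7KO (Ccr1, Ccl27a and Ccl8), where it called 2.5% of genes with an adjusted p (1.33% higher and 1.17% lower), and limma voom called 0.

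The estimate was positive for 25 of the 31 tested members and negative for 6, with a median log2 fold change of 0.62, while 49.4% of all genes tested were positive with a median of -0.01. Among the 9 receptors tested all 9 were positive (median 1.06), and among the 22 ligands 16 were (median 0.56). CC ligands had 12 positive of 14 (median 0.82), and CXC ligands 4 of 8 (median -0.04). Low members could pass the filter through the libraries of 1 group alone, so these counts describe the members tested and support no direction. Cxcr3, Cxcr6, Ccr7 and Ccr9, 4 of the 9 receptors, were under 1 CPM in at least 7 of 8 libraries. In 6 members (19.4%) all 4 CMS7KO libraries lay above all 4 ACRE libraries, where groups did not overlap in 9.59% of all genes tested (5.42% higher and 4.18% lower). The 6 were Cxcl16, Ccl27a, Ccl8, Ccr1, Ccl25 and Cxcr3, and Cxcl16 left this set when libraries were scaled by RLE size factors. Cxcr3 was tested through its CMS7KO libraries. The biological coefficient of variation, a measure of the spread between hearts of a group, had a median of 43.1% over the members tested and 27.2% over all genes tested. These medians were not matched for expression level, and 8 of the 31 members did not reach 1 CPM in 4 libraries.

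**Figure D1:**
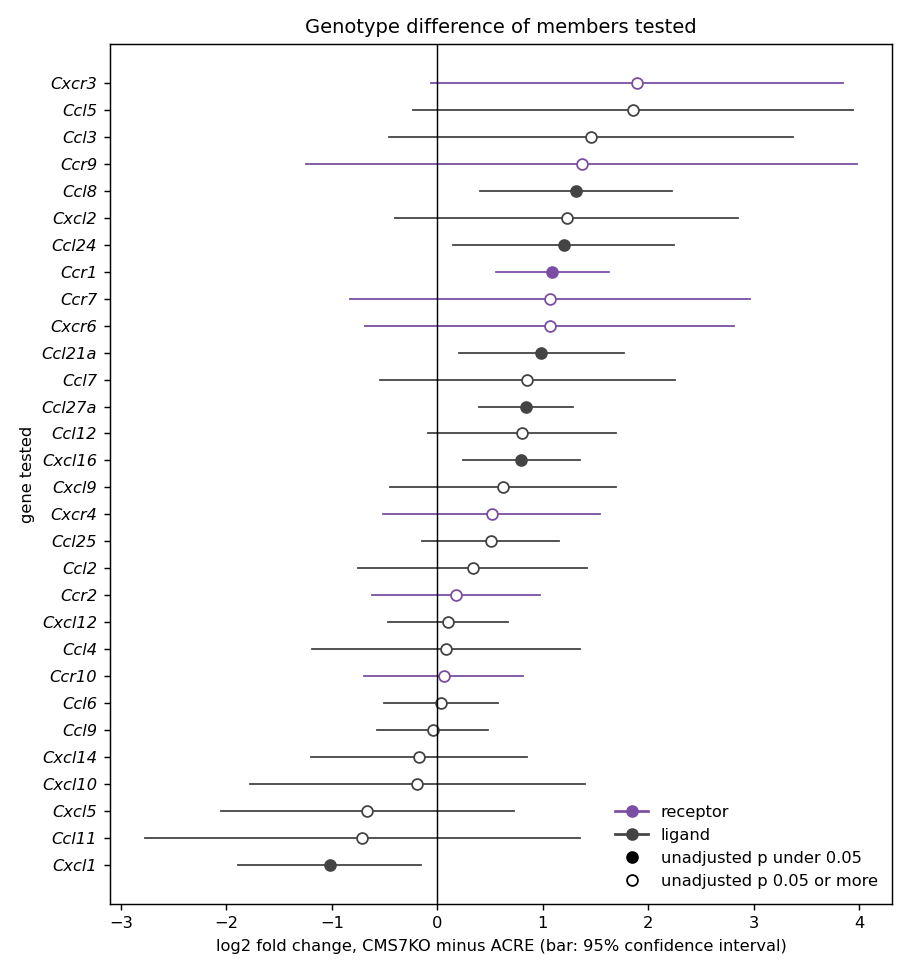
Log2 fold change of CMS7KO minus ACRE (x axis) for 30 of the 31 members tested (y axis), with 95% confidence intervals as bars, receptors in purple and ligands in grey, and filled points for an unadjusted p under 0.05. Ccl8 lies at 1.31, Ccr1 at 1.09 and Cxcl1, the lowest, at -1.02. The widest interval is that of Ccr9, and those of Ccl5, Ccl11 and Cxcr3 are also wide. Ccr9 and Cxcr3 were tested through their CMS7KO libraries.

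CMS7KO 4 had the highest level of all 8 libraries for 19 of 31 tested members (61.3%), against 10.9% of all genes tested. ACRE 2 and ACRE 4 had the lowest level for 11 and 10 members, 35.5% and 32.3%, against 20.2% and 18.8% of all genes tested. Some low members passed the filter through their CMS7KO libraries, among them Cxcr3, Cxcr6, Cxcl2 and Ccl3, each highest in CMS7KO 4. These shares were thus partly set by the filter and support no direction. Without CMS7KO 4, 20 of 33 members then tested were positive (median log2 fold change 0.49) and 7 had an unadjusted p under 0.05 (21.2%, against 10.8% of all genes). Without ACRE 2 and ACRE 4, 22 of 35 were positive (median 0.39) and 5 had such a p (14.3%, against 12.2% of all genes), a share near that of all genes. In both settings edgeR called 0 members.

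**Figure D2:**
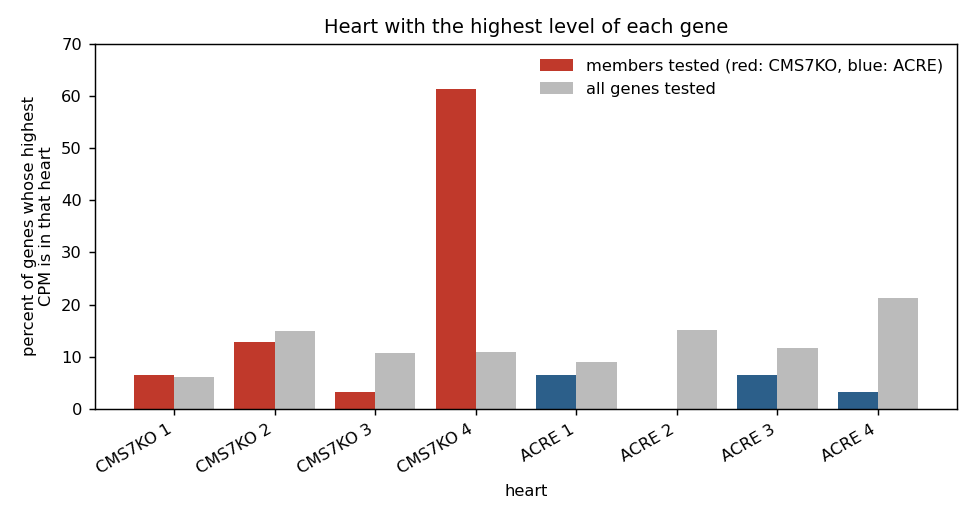
For each heart (x axis), the percent of genes whose highest CPM among the 8 hearts is in that heart (y axis), for the 31 members tested (red for CMS7KO, blue for ACRE) and for all 16780 genes tested (grey). CMS7KO 4 holds 61.3% of members and 10.9% of all genes, and ACRE 2 holds 0% of members and 15.2% of all genes. Some low members were tested through their CMS7KO hearts, so the share of members was partly set by the filter.

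Summed over ligands other than Cxcl12, levels were 158, 170.1, 136 and 271 CPM in CMS7KO 1 to 4, against 164, 95.4, 169.7 and 112 CPM in ACRE 1 to 4. Summed over receptors they were 40.5, 62.7, 50.7 and 57.99 CPM in CMS7KO 1 to 4, against 40.96, 26.9, 48.9 and 31.3 CPM in ACRE 1 to 4. CMS7KO 4 was the highest for ligands and CMS7KO 2 for receptors, ACRE 2 and ACRE 4 were the lowest in both, and the groups overlapped.

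Of 7 leukocyte marker lists, CMS7KO 4 had the highest sum of 8 libraries for macrophages and monocytes, T cells and neutrophils, while the B cell sum was highest in CMS7KO 3, the NK cell sum in CMS7KO 1, the dendritic sum in ACRE 1 and the mast cell sum in ACRE 3. All 5 NK cell markers, and all mast cell markers but Kit, averaged under 1 CPM. The summed level of 10 macrophage and monocyte markers was 742 to 912 CPM in CMS7KO and 438 to 798 CPM in ACRE, lowest in ACRE 4 and highest of its group in ACRE 2. Of the 10, 7 had a positive difference, 5 with an unadjusted p under 0.05 and 0 with an adjusted one. Over all genes tested, 7.12% had such an unadjusted p and a positive difference. The 6 T cell markers, each averaging under 1 CPM, summed to 1.16, 1.97, 3.16 and 11.3 CPM in CMS7KO 1 to 4 and to 1.34 to 3.04 CPM in ACRE. The 6 neutrophil markers summed to 8.18 to 18.7 CPM in CMS7KO, highest in CMS7KO 4, and to 3.80 to 5.40 CPM in ACRE, with Ly6g at 0 reads in all 8 libraries. S100a8, Ly6g, Mmp8 and Retnlg averaged under 1 CPM and 2 of the 6 were tested, so these sums stand on few markers. The part of these cells in the chemokine differences was not tested, and in whole-heart RNA more cells of a type and more RNA per cell cannot be told apart.

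Among ligands, Cxcl12 was the most abundant member per length, at 54.5 CPM per kilobase of gene model over 8 libraries. Ccl21a followed at 22.00, Ccl8 at 12.6, Ccl6 at 11.6 and Ccl12 at 8.66, an order that was not tested. Cxcl12, the ligand of Cxcr4 and Ackr3 (ENSMUSG00000061353, chromosome 6, 117145496 to 117158328 in the table), took 63.8% to 79.4% of all ligand reads of a library, lowest in CMS7KO 4. It stood at 437, 409, 522 and 478 CPM in CMS7KO 1 to 4, against 542, 256, 532 and 391 CPM in ACRE 1 to 4. The CMS7KO values lie inside the range of ACRE, whose lowest library is ACRE 2. The means were 461 ± 49.5 CPM in CMS7KO and 430.5 ± 135 CPM in ACRE (SD, n = 4 each), a ratio of 1.07 with a 95% confidence interval of 0.720 to 1.59 (log2 fold change 0.10, SE 0.25, unadjusted p = 0.706, edgeR adjusted p = 0.87). Without ACRE 2 and ACRE 4 the estimate was -0.23.

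**Figure D3:**
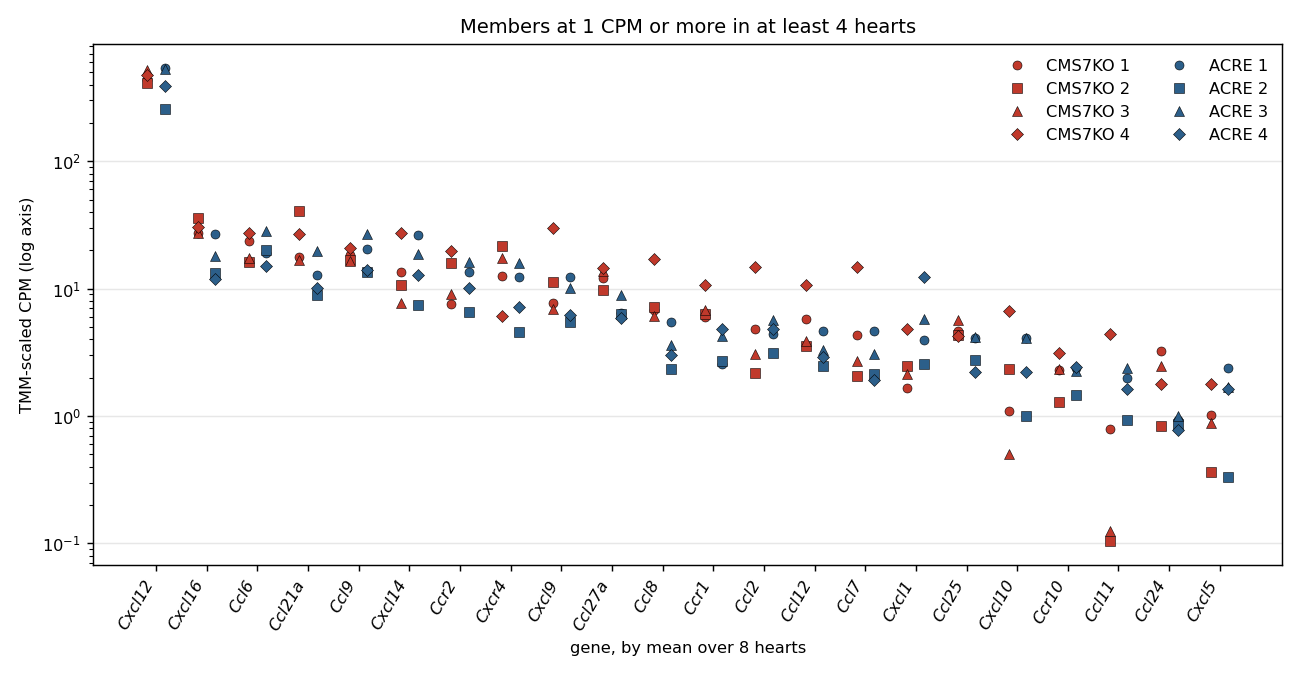
TMM-scaled CPM on a log axis (y axis) of 22 of the 23 members that reached 1 CPM in at least 4 hearts (x axis, by mean), with CMS7KO hearts in red left of ACRE hearts in blue and 1 symbol per replicate number. Cxcl12 lies at 256 to 542 CPM, above every other member, and the CMS7KO 4 diamond is the highest point for Ccl8, Ccl2, Ccl12 and Ccl7.

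Ligands of the monocyte chemoattractant family, a name by descent that does not give each one's target cell, lie in a run on chromosome 11. The run goes from the start of Ccl2 at 81926397 to the end of Ccl8 at 82007625 in the table's coordinates, whose build is not named, with Ccl7, Ccl11 and Ccl12 between them. Ccl8, a ligand of this family (ENSMUSG00000009185, chromosome 11, 82006011 to 82007625), stood at 6.80, 7.15, 6.06 and 17.2 CPM in CMS7KO 1 to 4, against 5.43, 2.34, 3.64 and 2.99 CPM in ACRE 1 to 4. All 4 CMS7KO libraries were above ACRE 1, the highest of its group, and CMS7KO 4 was far above the other 3. Means were 9.29 ± 5.27 CPM in CMS7KO and 3.60 ± 1.33 CPM in ACRE (SD, n = 4 each), a ratio of 2.48 (interval 1.32 to 4.68) that did not pass the test (log2 fold change 1.31, SE 0.41, unadjusted p = 0.00966, edgeR adjusted p = 0.262), while DESeq2 gave an adjusted p of 0.0497. Without CMS7KO 4 the log2 fold change was 0.84, still with every CMS7KO library above every ACRE library, and without ACRE 2 and 4 it was 0.96.

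Ccl2, the main Ccr2 ligand (ENSMUSG00000035385, chromosome 11, 81926397 to 81928279), stood at 4.85, 2.18, 3.09 and 14.9 CPM in CMS7KO 1 to 4, against 4.38, 3.15, 5.71 and 4.82 CPM in ACRE 1 to 4. The groups overlapped: CMS7KO 2 and 3 were below all ACRE libraries, CMS7KO 1 was inside their range and CMS7KO 4 was above it. Its estimate of 0.33 (SE 0.48, edgeR adjusted p = 0.749) on the log2 scale became -0.38 without CMS7KO 4. Ccl7, a second ligand of Ccr2, stood at 4.34, 2.07, 2.71 and 14.9 CPM in CMS7KO 1 to 4, against 4.62, 2.14, 3.07 and 1.93 CPM in ACRE 1 to 4, and its estimate went to -0.02 without CMS7KO 4, against 0.85 with it (edgeR adjusted p = 0.505). Ccl12, a mouse relative of Ccl2, stood at 5.79, 3.58, 3.85 and 10.7 CPM in CMS7KO 1 to 4, against 4.62, 2.48, 3.32 and 2.89 CPM in ACRE 1 to 4, highest again in CMS7KO 4 (log2 fold change 0.80, edgeR adjusted p = 0.359). Ccl11, the eosinophil attractant eotaxin, stood at 0.796, 0.104, 0.126 and 4.40 CPM in CMS7KO 1 to 4, against 1.99, 0.938, 2.38 and 1.64 CPM in ACRE 1 to 4. CMS7KO 4 was again the highest, while CMS7KO 2 and 3 held 2 reads each, fewer than any ACRE library, and without CMS7KO 4 the 3 remaining CMS7KO libraries lay below all of ACRE (log2 fold change -2.42, unadjusted p = 0.0167, edgeR adjusted p = 0.426).

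**Figure D4:**
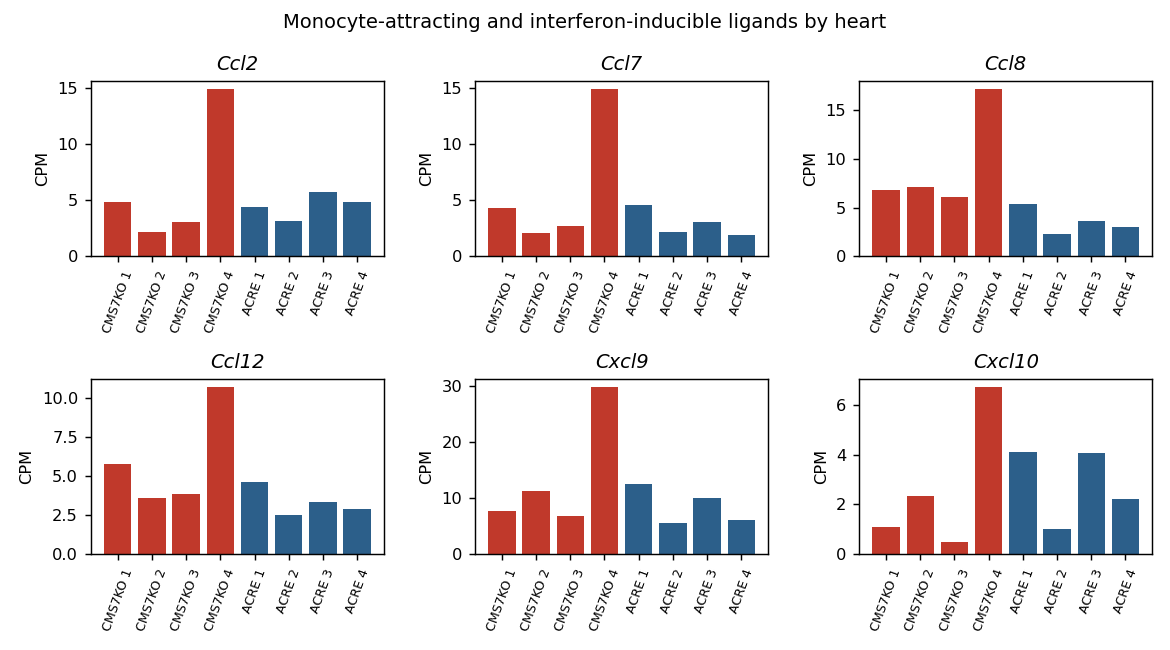
TMM-scaled CPM (y axis, from 0) in each heart (x axis, CMS7KO 1 to 4 in red, ACRE 1 to 4 in blue) for 4 ligands of the monocyte chemoattractant family and 2 interferon-inducible ligands. CMS7KO 4 is the highest bar in all 6 panels, at 14.9 CPM for Ccl2 and 29.8 CPM for Cxcl9, and the other 3 CMS7KO hearts are above all ACRE hearts only for Ccl8.

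A second run of CC ligands on chromosome 11, from Ccl5 to Ccl4, held the macrophage-expressed pair Ccl6 and Ccl9. Ccl6 stood at 23.7, 16.1, 17.4 and 27.3 CPM in CMS7KO 1 to 4, against 18.9, 20.1, 28.3 and 14.9 CPM in ACRE 1 to 4, and Ccl9 at 18.5, 16.9, 16.4 and 20.8 CPM in CMS7KO 1 to 4, against 20.6, 13.6, 26.8 and 14.1 CPM in ACRE 1 to 4. Both pairs of groups overlapped, with ACRE 3 the highest of 8 in each, and the ratios were 1.02 (interval 0.703 to 1.49) and 0.969 (0.673 to 1.39). Ccl5, a T cell and platelet product, stood at 0.289, 0.985, 0.379 and 4.40 CPM in CMS7KO 1 to 4, against 0.467, 0.0670, 0.753 and 0.0964 CPM in ACRE 1 to 4, with 59 of its 110 reads in CMS7KO 4. Ccl3 and Ccl4, macrophage inflammatory proteins, had 50 and 67 reads over 8 libraries and were highest in CMS7KO 4 (edgeR adjusted p = 0.417 and 0.961). Ccl3 passed the filter through its CMS7KO libraries, so its highest level there supports no direction.

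Ccl21a, a ligand of Ccr7 made by lymphatic endothelium and lymphoid stroma (ENSMUSG00000094686, chromosome 4, 42772860 to 42773993), stood at 17.7, 40.4, 16.7 and 26.9 CPM in CMS7KO 1 to 4, against 12.7, 8.91, 19.6 and 10.1 CPM in ACRE 1 to 4. The groups overlapped at ACRE 3, and CMS7KO 2 was the highest. Its ratio was 1.98 (interval 1.15 to 3.41; log2 fold change 0.99, SE 0.35, unadjusted p = 0.0191, edgeR adjusted p = 0.289), and the log2 fold change was 0.61 without CMS7KO 2 and 0.64 without ACRE 2 and 4. Reads of this gene are uncertain, because the longest GENCODE M21 transcript of Ccl21b matched that of Ccl21a at 99.5% of 402 aligned bases and the table gives Ccl21b and Ccl21d 0 reads. Lymphatic endothelial markers summed to 130.2 to 164 CPM in CMS7KO and 113 to 169 CPM in ACRE, with 3 of 5 positive.

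Ccl27a, a ligand of Ccr10 known from skin keratinocytes (ENSMUSG00000073888, chromosome 4, 41769467 to 41774247), stood at 12.01, 9.69, 13.8 and 14.5 CPM in CMS7KO 1 to 4, against 6.49, 6.29, 8.97 and 5.88 CPM in ACRE 1 to 4. Every CMS7KO library was above ACRE 3, the highest of its group, also without CMS7KO 4 and without ACRE 2 and 4. The means were 12.5 ± 2.13 CPM in CMS7KO and 6.91 ± 1.40 CPM in ACRE (SD, n = 4 each), a ratio of 1.79 (interval 1.31 to 2.45; log2 fold change 0.84, SE 0.20, unadjusted p = 0.00207, edgeR adjusted p = 0.199; DESeq2 adjusted p = 0.0436). The gene overlaps Il11ra1, a receptor gene on the other strand with 9777 reads, by 8 bases in the table. Overlaps given here are of whole gene spans, introns included, and overlap of exons was not examined. Ccr10, its receptor, stood at 2.32, 1.30, 2.33 and 3.13 CPM in CMS7KO 1 to 4, against 2.40, 1.47, 2.26 and 2.41 CPM in ACRE 1 to 4, with overlapping groups and a ratio of 1.04 (interval 0.617 to 1.76), and overlaps Cntnap1, which had 2393 reads on the other strand, by 2447 bases.

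Ccl24, an eosinophil attractant made by alternatively activated macrophages and read by Ccr3, stood at 3.26, 0.8291, 2.46 and 1.79 CPM in CMS7KO 1 to 4, against 0.935, 0.871, 1.004 and 0.771 CPM in ACRE 1 to 4. The 4 ACRE libraries were close together, and CMS7KO 1, 3 and 4 were above them while CMS7KO 2 was among them. The ratio was 2.29 (interval 1.11 to 4.75; log2 fold change 1.20, SE 0.47, unadjusted p = 0.0295, edgeR adjusted p = 0.308), from 177 reads in all. Ccl25, a ligand of Ccr9 known from thymus and gut (ENSMUSG00000023235, chromosome 8, 4375210 to 4410020), stood at 4.63, 4.30, 5.68 and 4.25 CPM in CMS7KO 1 to 4, against 4.09, 2.75, 4.14 and 2.22 CPM in ACRE 1 to 4. The groups did not overlap, by a margin of CMS7KO 4 over ACRE 3 that is small beside the spread within either group, and the ratio was 1.42 (interval 0.904 to 2.23; log2 fold change 0.50, SE 0.29, unadjusted p = 0.114, edgeR adjusted p = 0.412). Ccl25 overlaps Elavl1, with 5854 reads, by 204 bases on the other strand, and Ccr9 held 39 reads.

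Cxcl16, a transmembrane and shed ligand of Cxcr6 (ENSMUSG00000018920, chromosome 11, 70344809 to 70350810), stood at 27.4, 36.1, 27.3 and 30.6 CPM in CMS7KO 1 to 4, against 27.1, 13.3, 18.2 and 11.9 CPM in ACRE 1 to 4. The lowest CMS7KO library exceeded ACRE 1 only narrowly, and ACRE 4 and 2 were the lowest of 8. The means were 30.3 ± 4.12 CPM in CMS7KO and 17.6 ± 6.87 CPM in ACRE (SD, n = 4 each), a ratio of 1.74 (interval 1.18 to 2.55; log2 fold change 0.80, SE 0.25, unadjusted p = 0.00985, edgeR adjusted p = 0.263). Without ACRE 2 and 4, or without CMS7KO 4, the rescaled groups overlapped, and without ACRE 2 and 4 the log2 fold change was 0.44 (unadjusted p = 0.0332, edgeR adjusted p = 0.345). Zmynd15 overlaps Cxcl16 by 552 bases on the other strand and had 1968 reads. Cxcr6, the receptor, stood at 0.217, 0.881, 0.820 and 1.64 CPM in CMS7KO 1 to 4, against 0.0584, 0.737, 0.251 and 0.578 CPM in ACRE 1 to 4, from 77 reads and with overlapping groups, and overlaps Fyco1, which had 23450 reads on the other strand. Cxcr6 passed the filter through its CMS7KO libraries, so its sign supports no direction.

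Cxcl1 was the only member with a negative difference at an unadjusted p under 0.05. This neutrophil attractant (ENSMUSG00000029380, chromosome 5, 91039100 to 91040974) stood at 1.66, 2.49, 2.15 and 4.78 CPM in CMS7KO 1 to 4, against 3.97, 2.54, 5.77 and 12.2 CPM in ACRE 1 to 4. ACRE 4 was the highest of 8, CMS7KO 1, 2 and 3 were below all ACRE libraries, and CMS7KO 4 lay inside the ACRE range. The means were 2.77 ± 1.38 CPM in CMS7KO and 6.13 ± 4.28 CPM in ACRE (SD, n = 4 each), a ratio of 0.493 (interval 0.270 to 0.900; log2 fold change -1.02, SE 0.39, unadjusted p = 0.026, edgeR adjusted p = 0.304). The log2 fold change was -0.83 without ACRE 2 and 4, -1.20 without CMS7KO 4 and -0.70 without ACRE 4.

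The neighbouring Cxcr2 ligands Cxcl5 and Cxcl2 were low and did not pass the test. Cxcl5 stood at 1.01, 0.363, 0.883 and 1.79 CPM in CMS7KO 1 to 4, against 2.40, 0.335, 1.69 and 1.64 CPM in ACRE 1 to 4, with overlapping groups (log2 fold change -0.66, edgeR adjusted p = 0.602). Cxcl2, which has the kappaB-like match printed above for Cxcl1, stood at 0.796, 0.415, 0.379 and 0.896 CPM in CMS7KO 1 to 4, against 0.117, 0.134, 0.188 and 0.771 CPM in ACRE 1 to 4, from 52 reads (log2 fold change 1.23, edgeR adjusted p = 0.42). Its highest counts were 11 and 12 reads in CMS7KO 1 and 4. Cxcl2 passed the filter through that group, so its sign supports no direction. Their receptors Cxcr2 and Cxcr1 had 29 and 2 reads over 8 libraries and were not tested.

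Of the interferon-inducible ligands of Cxcr3, Cxcl9 and Cxcl10 were highest in CMS7KO 4. Cxcl9 (ENSMUSG00000029417, chromosome 5, 92469206 to 92475938) stood at 7.67, 11.3, 6.88 and 29.8 CPM in CMS7KO 1 to 4, against 12.4, 5.49, 10.04 and 6.17 CPM in ACRE 1 to 4. CMS7KO 4 was the highest, and the other 3 CMS7KO libraries lay inside the ACRE range, and the estimate of 0.62 (SE 0.48, edgeR adjusted p = 0.524) on the log2 scale was -0.06 without it. Cxcl10 stood at 1.09, 2.33, 0.505 and 6.72 CPM in CMS7KO 1 to 4, against 4.09, 1.004, 4.08 and 2.22 CPM in ACRE 1 to 4, with the highest and the lowest library both CMS7KO. Its span overlaps that of Art3, which had 21947 reads on the other strand, by 2252 bases, and whether their exons overlap was not examined. Cxcl11 had 0 reads in each CMS7KO library and 2, 3, 3 and 4 reads in ACRE 1 to 4, too few to be tested. The span of Cxcl11 also overlaps that of Art3 on the other strand, by 5942 bases. Cxcr3, their receptor on T cells, stood at 0.651, 0.8291, 0.694 and 3.43 CPM in CMS7KO 1 to 4, against 0.526, 0.469, 0.314 and 0 CPM in ACRE 1 to 4, from 103 reads of which 46 were in CMS7KO 4. The groups did not overlap, and the log2 fold change was 1.89 with CMS7KO 4 and 1.06 without it (edgeR adjusted p = 0.333 and 0.575). Cxcr3 passed the filter through its CMS7KO libraries, so its sign and separation support no direction.

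Cxcl14, a ligand with disputed receptors that fibroblasts and epithelia make (ENSMUSG00000021508, chromosome 13, 56436456 to 56444364), stood at 13.5, 10.6, 7.76 and 27.3 CPM in CMS7KO 1 to 4, against 26.5, 7.43, 18.8 and 12.7 CPM in ACRE 1 to 4. CMS7KO 4 and ACRE 1 were the highest, the groups overlapped across their whole range, and the ratio was 0.886 (interval 0.435 to 1.80). Cxcl13, the B cell attractant of lymphoid follicles, had 0, 0, 0 and 36 reads in CMS7KO 1 to 4 and 9, 5, 9 and 4 reads in ACRE 1 to 4, and it did not pass the filter. Its receptor Cxcr5 had 38 reads over 8 libraries.

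Receptors were led per length by Cxcr4, at 6.74 CPM per kilobase, ahead of Ccr1 at 1.95 and Ccr2 at 1.83. Ccr1, a receptor of monocytes, macrophages and neutrophils (ENSMUSG00000025804, chromosome 9, 123762161 to 123768729), stood at 6.01, 6.37, 6.75 and 10.7 CPM in CMS7KO 1 to 4, against 2.57, 2.68, 4.27 and 4.82 CPM in ACRE 1 to 4. All CMS7KO libraries were above all ACRE libraries, and CMS7KO 4 was above the rest of its group. The means were 7.47 ± 2.21 CPM in CMS7KO and 3.58 ± 1.13 CPM in ACRE (SD, n = 4 each), a ratio of 2.13 (interval 1.47 to 3.08; log2 fold change 1.09, SE 0.24, unadjusted p = 0.00118, edgeR adjusted p = 0.187; DESeq2 adjusted p = 0.022). The separation held without CMS7KO 4 (log2 fold change 0.96, edgeR adjusted p = 0.378) and without ACRE 2 and 4 (log2 fold change 1.14, edgeR adjusted p = 0.112). Over its 19 alternative settings the log2 fold change of Ccr1 was 0.94 to 1.24, and the adjusted p was 0.0175 to 0.859.

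Ccr2, the receptor of recruited monocytes (ENSMUSG00000049103, chromosome 9, 123901987 to 123913594), stood at 7.60, 15.96, 9.15 and 19.8 CPM in CMS7KO 1 to 4, against 13.6, 6.50, 16.2 and 10.1 CPM in ACRE 1 to 4. The groups overlapped across nearly their whole range, and the ratio was 1.13 (interval 0.652 to 1.96; log2 fold change 0.18, SE 0.35, unadjusted p = 0.626, edgeR adjusted p = 0.823). Cxcr4, the Cxcl12 receptor (ENSMUSG00000045382, chromosome 1, 128515936 to 128520030), stood at 12.5, 21.5, 17.4 and 6.12 CPM in CMS7KO 1 to 4, against 12.4, 4.55, 15.9 and 7.23 CPM in ACRE 1 to 4. The groups overlapped, CMS7KO 4 was the lowest of its group, and the estimate of 0.51 (SE 0.46, edgeR adjusted p = 0.584) on the log2 scale was 0.82 without it and -0.0039 without ACRE 2 and 4. Ccr7, the homing receptor for Ccl19 and Ccl21a, and Ccr9 had 59 and 39 reads in all and overlapping groups. Ccr9 passed the filter through its CMS7KO libraries, so its sign supports no direction.

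**Figure D5:**
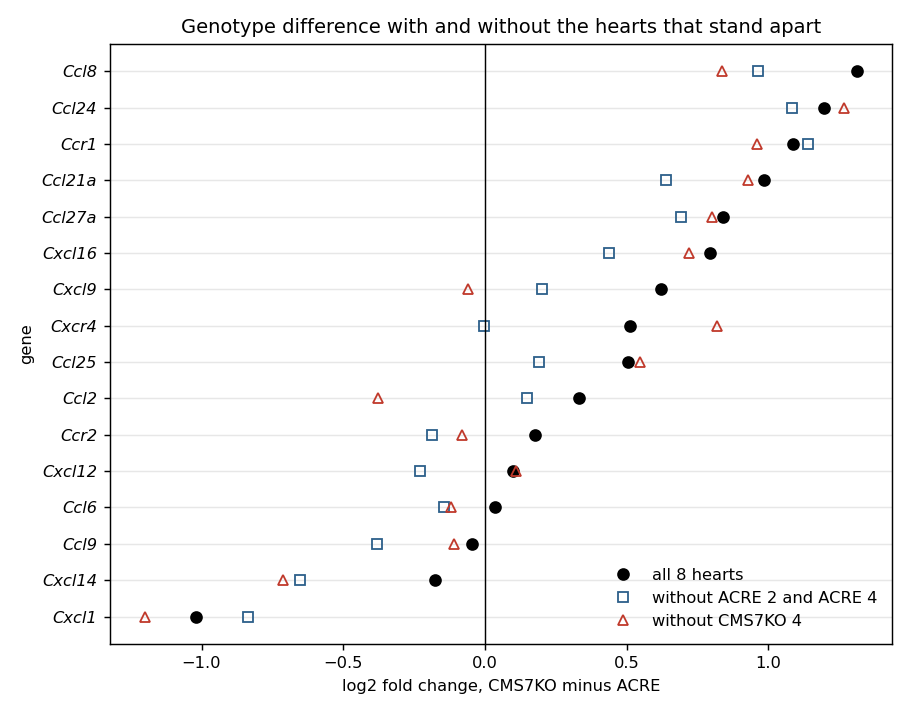
Log2 fold change of CMS7KO minus ACRE (x axis) for 16 members described with all 8 values by rule (y axis), with all 8 hearts (black circles), without ACRE 2 and ACRE 4 (blue squares) and without CMS7KO 4 (red triangles). Ccr1 stays between 0.96 and 1.14, while Ccl2 lies at -0.38 and Cxcl9 at -0.06 without CMS7KO 4.

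Of the 22 members not tested, 17 had reads. The 10 with at least 10 reads held 11 to 63 reads over 8 libraries: Cxcl13, Ccl28, Cxcr5, Cxcr2, Ccl22, Ccl19, Cxcl11, Ccl17, Ccr8 and Ccr4. Cxcl3, Ccl1, Ccr6, Cxcr1, Cxcl17, Ccl26 and Cxcl15 held 1 to 5 reads. Ccl20 and Ccr3 had 0 reads in every library, which allows up to 3 reads per library, or 0.155 to 0.289 CPM. Ccl21b and Ccl21d are also listed at 0 reads, with no limit given because reads may be assigned to Ccl21a. Ccl27b is listed at 0 reads too, with no limit given. Only the longest transcripts of Ccl27a and Ccl27b were compared, and whether reads of Ccl27b were assigned to Ccl27a was not tested.

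Related chemokine-system genes outside the set had estimates in both directions. Of 12 such genes 11 were tested, 9 with a positive and 2 with a negative difference, and 0 passed the threshold by edgeR. At an unadjusted p under 0.05, 1 was higher and 2 were lower, where 7.12% of all genes tested were higher and 8.2% lower. Cx3cr1, the fractalkine receptor of resident macrophages, stood at 16.6, 25.1, 17.7 and 25.1 CPM in CMS7KO 1 to 4, against 10.5, 15.5, 10.5 and 5.78 CPM in ACRE 1 to 4, without overlap (log2 fold change 1.03, edgeR adjusted p = 0.216). Ackr3, a scavenger receptor of Cxcl12, stood at 73.9, 74.6, 65.2 and 78.4 CPM in CMS7KO 1 to 4, against 81.3, 108, 85.4 and 180.3 CPM in ACRE 1 to 4, also without overlap and lower in CMS7KO (log2 fold change -0.62, edgeR adjusted p = 0.312). Ccrl2, an atypical receptor, stood at 9.33, 9.07, 7.004 and 11.9 CPM in CMS7KO 1 to 4, against 13.3, 15.00, 9.41 and 20.8 CPM in ACRE 1 to 4 (log2 fold change -0.64, edgeR adjusted p = 0.316). For Ackr3 and Ccrl2 the highest library was ACRE 4.

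Among 14 genes of receptor signalling, 13 were tested and 0 passed by edgeR, with 3 higher at an unadjusted p under 0.05, where 7.12% of all genes tested were. Arrb2, a beta-arrestin that desensitises and internalises receptors, stood at 40.95, 40.3, 52.4 and 45.4 CPM in CMS7KO 1 to 4, against 30.4, 25.2, 32.7 and 14.8 CPM in ACRE 1 to 4, and Grk3, a receptor kinase, at 47.1, 54.7, 53.2 and 70.8 CPM in CMS7KO 1 to 4, against 37.04, 38.97, 32.5 and 23.6 CPM in ACRE 1 to 4. Neither pair of groups overlapped (edgeR adjusted p = 0.253 and 0.209), and ACRE 4 was the lowest in both. Pik3cg, the phosphoinositide kinase downstream of these receptors in leukocytes, stood at 9.12, 10.9, 9.21 and 8.21 CPM in CMS7KO 1 to 4, against 5.67, 9.11, 4.64 and 4.15 CPM in ACRE 1 to 4 (edgeR adjusted p = 0.281). Of 12 upstream inflammatory regulators such as Nfkb1, Tnf and Irf1, 11 were tested, 7 were positive and 4 negative, and 0 passed by edgeR, also at an unadjusted p under 0.05.

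The female-labelled and male-labelled libraries were compared in the same fit, as labelled. By edgeR 0 of 31 members passed, and 2 had an unadjusted p under 0.05, both higher with the female label, where 1.23% of all genes tested had one (0.805% higher and 0.429% lower). They were Cxcl1, at 1.10 on the log2 scale (female minus male label, edgeR adjusted p = 1), and Ccr1, at 0.64 (edgeR adjusted p = 1). The interaction of genotype and sex label passed for 0 members by edgeR and by DESeq2, and had an unadjusted p under 0.05 for 0 of 31 by edgeR and for 1 of 48 by DESeq2, where 1.06% of all genes tested had one by edgeR (0.417% higher and 0.644% lower) and 0.664% by DESeq2. Within the female labels Ccr1 differed by 0.94 and within the male labels by 1.24 on the log2 scale (CMS7KO minus ACRE, 2 libraries each). For Ccl7, with CMS7KO 4 among the female labels, these differences were 1.79 and -0.09 (edgeR interaction adjusted p = 1).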

How the data were processed

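Polyadenylated RNA of 8 whole hearts was sequenced. The authors deposited 1 table of raw read counts per gene with 1 column per heart. Per the submitters' processing notes, the tools were CASAVA, TopHat2 (2.0), HTSeq (0.6.1) and Cufflinks (2.1.1), and the builds GRCm38.p6 and mm10 are named. The counting's strand setting and annotation were not stated. In GENCODE M21 on GRCm38, 5 of 53 members had the table's start, and coordinates are printed as the table has them. Promoters are RefSeq's, on GRCm38.p6.

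The count table was tested with edgeR 4.0.16 in R 4.3.3: filterByExpr on genotype and sex label, TMM scaling, and a robust quasi-likelihood F test of CMS7KO minus ACRE with the sex label as covariate. P values were adjusted over 16780 genes, with a threshold of 0.05. The SE is the log2 fold change over the square root of F. The code was checked on simulated data. Every pair of libraries differed beyond sampling noise (smallest chi-square per degree of freedom 17.5). The labels call the hearts independent and name no litters or batches. Limits from 3 reads cover counting error only.

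Members were described with 8 values where they reached 1 CPM in 4 libraries and had groups without overlap, an unadjusted p under 0.05 or a mean of 5 CPM, and others after their values were seen. The values of 1 member are not reported here. Members and lists were chosen with earlier results of these data known. Alternatives were DESeq2 1.42.0, limma 3.58.1 (voom), RLE factors, other filters, no covariate, a replicate block, each sex label alone, and libraries left out.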

Additional observations from a re-analysis of the deposited data

Results flagged for a closer look

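Ccl8 and Ccr1 in the CMS7KO group each had 1 library far from the other 3, by the gap to its neighbour as a share of the group's range (0.902 for Ccl8 and 0.843 for Ccr1), and it was CMS7KO 4 both times. Ccl8 stood at 6.80, 7.15, 6.06 and 17.2 CPM and Ccr1 at 6.01, 6.37, 6.75 and 10.7 CPM in CMS7KO 1 to 4. Among 34 groups of 4 examined in this way 2 stood out. Chance gives about 1 in 20, so this count is near what chance gives.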

How the results depend on the processing

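Under the alternatives that keep all 8 libraries and the filter (limma voom, RLE factors, no sex label covariate, replicate block), 0 of 31 members were called, and their median log2 fold change was 0.54 to 0.69. DESeq2, run without that filter, called 3 members and 403 genes in all. With no filter on low counts edgeR called 5 of 48 members (Ccl21a, Ccl27a, Ccl8, Ccr1 and Cxcl16) and 1368 of 32514 genes, and 14 members (29.2%) had an unadjusted p under 0.05, against 12% of all genes; the cause was not tested. The replicate number as a block left 3 genes and 0 members called, with 7 members (22.6%) at an unadjusted p under 0.05, against 13.1% of all genes. Same-numbered libraries correlated at -0.173, -0.187, 0.124 and 0.205 in their deviations from the group means. The best-correlated ACRE library had the same number for CMS7KO 3 and 4, and another number for CMS7KO 1 and 2. With so few libraries per group these values cannot settle whether the numbers pair the samples. Leaving out each library gave 0 to 17 genes and 0 members called, as 17 without ACRE 2, 11 without ACRE 4 and 0 without CMS7KO 1, 2 or 3. Without ACRE 2 and 4 there were 175 genes and without ACRE 3 and CMS7KO 3 there was 1. Within the male labels 0 genes were called, with 4 members (12.9%, against 4.8% of all genes) at an unadjusted p under 0.05 and 13 without overlap (41.9%, against 33.9%). Within the female labels 0 genes were called, with 7 members (22.6%, against 5.79%) at such a p and 13 without overlap (41.9%, against 36.0%).

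The sign of some estimates turned. Without ACRE 2 and 4 the log2 fold change was -0.23 for Cxcl12, -0.15 for Ccl6, -0.19 for Ccr2 and -0.0039 for Cxcr4. Without ACRE 3 and CMS7KO 3 it was 0.22 for Ccl9 and 0.0200 for Cxcl14. Within the male labels it was 0.051 for Ccl9 and -0.11 for Ccl2, within the female labels 0.15 for Cxcl14, and with the replicate block 0.00029 for Ccl9. Leaving out 1 library gave -0.081 to 0.35 for Cxcl12, -0.13 to 0.23 for Ccl6, -0.20 to 0.18 for Ccl9, -0.71 to 0.35 for Cxcl14, -0.080 to 0.40 for Ccr2, -0.060 to 1.01 for Cxcl9 and -0.38 to 0.60 for Ccl2. Members with under 100 reads in all are limited by depth.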

Other observations

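Marker genes of cells that make or read chemokines gave these summed levels. The fibroblast markers, 5 of 5 with a positive difference, summed to 1480.1 to 2635 CPM in CMS7KO and 1023 to 1282 CPM in ACRE for Pdgfra, Col1a1, Dcn, Tcf21 and Lum, with no overlap between the groups and with CMS7KO 2 the highest. The B cell markers, 5 of 5 positive, summed to 25.6 to 39.2 CPM in CMS7KO and 13.2 to 26.8 CPM in ACRE, most of it Ighm. The platelet and erythroid markers, 6 of 6 positive, summed to 743 to 1270.4 CPM in CMS7KO and 358 to 754 CPM in ACRE, most of it globin. Pf4, a platelet chemokine that macrophages also express, stood at 24.7, 15.9, 22.2 and 31.05 CPM in CMS7KO 1 to 4, against 17.2, 19.1, 20.1 and 10.99 CPM in ACRE 1 to 4. Blood endothelial markers, 4 of 5 positive, summed to 1957 to 2513 CPM in CMS7KO and 1310.4 to 2839 CPM in ACRE. Pericyte and smooth muscle markers, 3 of 5 positive, summed to 1441 to 1741 CPM in CMS7KO and 1574 to 1879 CPM in ACRE. Dendritic markers, 3 of 4 tested positive, summed to 55.2 to 69.9 CPM in CMS7KO and 37.03 to 75.8 CPM in ACRE. Mast cell markers, 1 of 4 tested positive, summed to 18.7 to 28.3 CPM in CMS7KO and 12.7 to 32.2 CPM in ACRE, and the NK cell markers to 1.26 to 2.75 CPM in CMS7KO and 0.670 to 1.93 CPM in ACRE. Except for Kit, the markers of these 2 lists averaged under 1 CPM, so the mast cell sum is mostly Kit. Epicardial and mesothelial markers summed to 15.1 to 18.1 CPM in CMS7KO and 9.51 to 19.2 CPM in ACRE. Lung and thymus markers were near 0, at 0.224 to 1.5028 CPM in CMS7KO and 0.251 to 0.482 CPM in ACRE. By edgeR 0 genes of these lists passed the threshold. At an unadjusted p under 0.05, 3 fibroblast, 2 B cell and 2 platelet and erythroid markers were higher in CMS7KO, where 7.12% of all genes tested were. Lower at such a p were 1 pericyte and smooth muscle and 1 mast cell marker, where 8.2% of all genes tested were.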
